A study of Mus musculus with 11 samples.

Results

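The 36 genes described here act in mitosis. They are the genes of the table whose names stand on a list of cyclins, mitotic kinases, spindle checkpoint, kinetochore, spindle and cytokinesis genes, 36 of 23224 gene names. All 36 were found under the listed name, and all 36 were among the 13720 genes with enough counts to be tested. Their RNA was counted in 11 poly(A)-selected libraries from mouse colon cancer organoids, whose genotype the labels give as AKP in every sample. Of these, 3 were organoids derived again from primary tumours of RAG2KO mice, which lack mature T and B cells, and 3 were derived in the same way from immunocompetent C57Bl6 mice. These tumours had formed after naive organoids were placed orthotopically by colonoscopy, and the cultures were passaged until, per the submitters' design text, cancer cells alone remained. 1 library came from a constitutive and 1 from a doxycycline-inducible SOX17 overexpression line (SOX17OE), both made from naive organoids with a lentivirus, and 3 came from naive AKP organoids. Each line is 1 library, and the sources used here do not say whether the inducible line received doxycycline, nor the age of the host mice.

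Mitosis is driven by CDK1 bound to B-type cyclins. Polo-like and Aurora kinases build the spindle, kinetochores tie chromosomes to its microtubules, and the spindle checkpoint holds back the anaphase-promoting complex until every kinetochore is attached. Most genes of this programme are transcribed late in the cell cycle, when the MuvB core with B-MYB and FOXM1 activates promoters that in resting cells are held by the repressive form of MuvB, so that their summed RNA is widely read as a measure of dividing cells. In the intestinal epithelium that RNA comes mainly from crypt-base and transit-amplifying cells, and cancer organoids keep it high.

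Library totals lay between 14109182 and 22154456 expected counts. Levels are CPM, the counts of a library scaled to a common total by TMM, and changes are log2 fold changes from a fit over all genes with edgeR's quasi-likelihood test. Called genes are those whose p, adjusted by Benjamini and Hochberg over all tested genes, was under 0.05. Sox17 had 15.4 to 24.4 CPM in RAG2KO tumour organoids, 12.4 to 74.3 CPM in C57Bl6 tumour organoids, 72.7 CPM in the constitutive line, 4.78 CPM in the inducible line and 0.04 to 0.21 CPM in naive organoids. The summed level of 8 epithelial markers was 9777 to 10491 CPM in RAG2KO tumour organoids, 9092 to 11348 CPM in C57Bl6 tumour organoids, 6583 CPM in the constitutive line, 8298 CPM in the inducible line and 9782 to 11644 CPM in naive organoids. That of 8 lymphocyte markers did not exceed 0.53 CPM in any library. The 8 fibroblast markers summed to 0.13 to 8.93 CPM in RAG2KO tumour organoids, 0.26 to 1.01 CPM in C57Bl6 tumour organoids, 6.57 CPM in the constitutive line, 0.70 CPM in the inducible line and 0.21 to 0.35 CPM in naive organoids, and none of the 3 with enough counts was called. The 7 myeloid markers summed to 6.27 to 16.1 CPM, 5.27 to 10.01 CPM, 14.9 CPM, 5.65 CPM and 3.93 to 10.9 CPM in the same order, and 1, Csf1r, was called higher in RAG2KO against naive. Their part in the mitotic values was not tested. The ribosomal RNA precursor Rn45s, a sign of RNA that poly(A) selection should remove, took 6.56 to 8.54% of counts in RAG2KO tumour organoids, 2.21 to 3.77% in C57Bl6 tumour organoids, 6.39% in the constitutive line, 3.71% in the inducible line and 2.42 to 4.99% in naive organoids.

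The mitotic genes were lower in organoids from RAG2KO tumours than in naive organoids and than in organoids from C57Bl6 tumours. Against naive, 24 of the 36 fell and 1, the checkpoint gene Mad2l1, rose, where 13.3% of all tested genes fell and 16% rose. Their median log2 change was -0.72, beside 0.02 over all tested genes. In the direct comparison of RAG2KO with C57Bl6 tumour organoids, 20 of 36 were lower and none was higher in RAG2KO, where 12.2% of all tested genes were lower and 11.8% higher; the median was -0.58. The mean of the SOX17OE lines was lower than naive in 9 members and higher in 1, again Mad2l1, where 5.92% of all genes were lower and 6.77% higher, and the median was -0.53. C57Bl6 tumour organoids had no called member against naive, where 5.85% of all genes were lower and 9.5% higher, and their median was -0.08. In this last comparison 4 members had an unadjusted p under 0.05 in edgeR, and DESeq2, which called 20% of all tested genes there, called 2, Foxm1 as higher and Cenpf as lower. The RAG2KO and SOX17OE comparisons share the naive libraries, and both RAG2KO comparisons share the RAG2KO libraries. In bulk RNA, fewer dividing cells and less mitotic RNA per dividing cell cannot be told apart.

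The RAG2KO tumour libraries differed among themselves, and Rn45s moved with the same groups. The median member stood at -0.31, -1.03 and -0.77 in RAG2KO replicates 1, 2 and 3, at -0.23, 0.02 and -0.004 in the C57Bl6 replicates, and between -0.07 and 0.07 in the naive replicates, as log2 differences from the naive mean. Replicate 1 was the highest of the RAG2KO libraries in 34 of 36 genes, and replicate 2 the lowest in 31 of 36. Over all tested genes the medians of RAG2KO replicates 1, 2 and 3 were 0, 0 and -0.008, values that the scaling holds near 0. How often the replicates took this order over all tested genes was not counted. Without RAG2KO replicate 2, 16 members were called against naive, where the share of all tested genes called went from 29.2% to 18.2%. Without C57Bl6 replicate 3, 11 were called between the tumour groups, where that share went from 24% to 13.6%. With the Rn45s share as a covariate, an alternative added after seeing the data, no member was called in any comparison. All-gene calls then fell to 1.08% for RAG2KO against naive and 0.0146% between the tumour groups, while the members' medians were -0.54 and -0.46. The Rn45s share of every RAG2KO library exceeded that of every other library, so it cannot be told apart from the RAG2KO group.

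**Figure D1:**
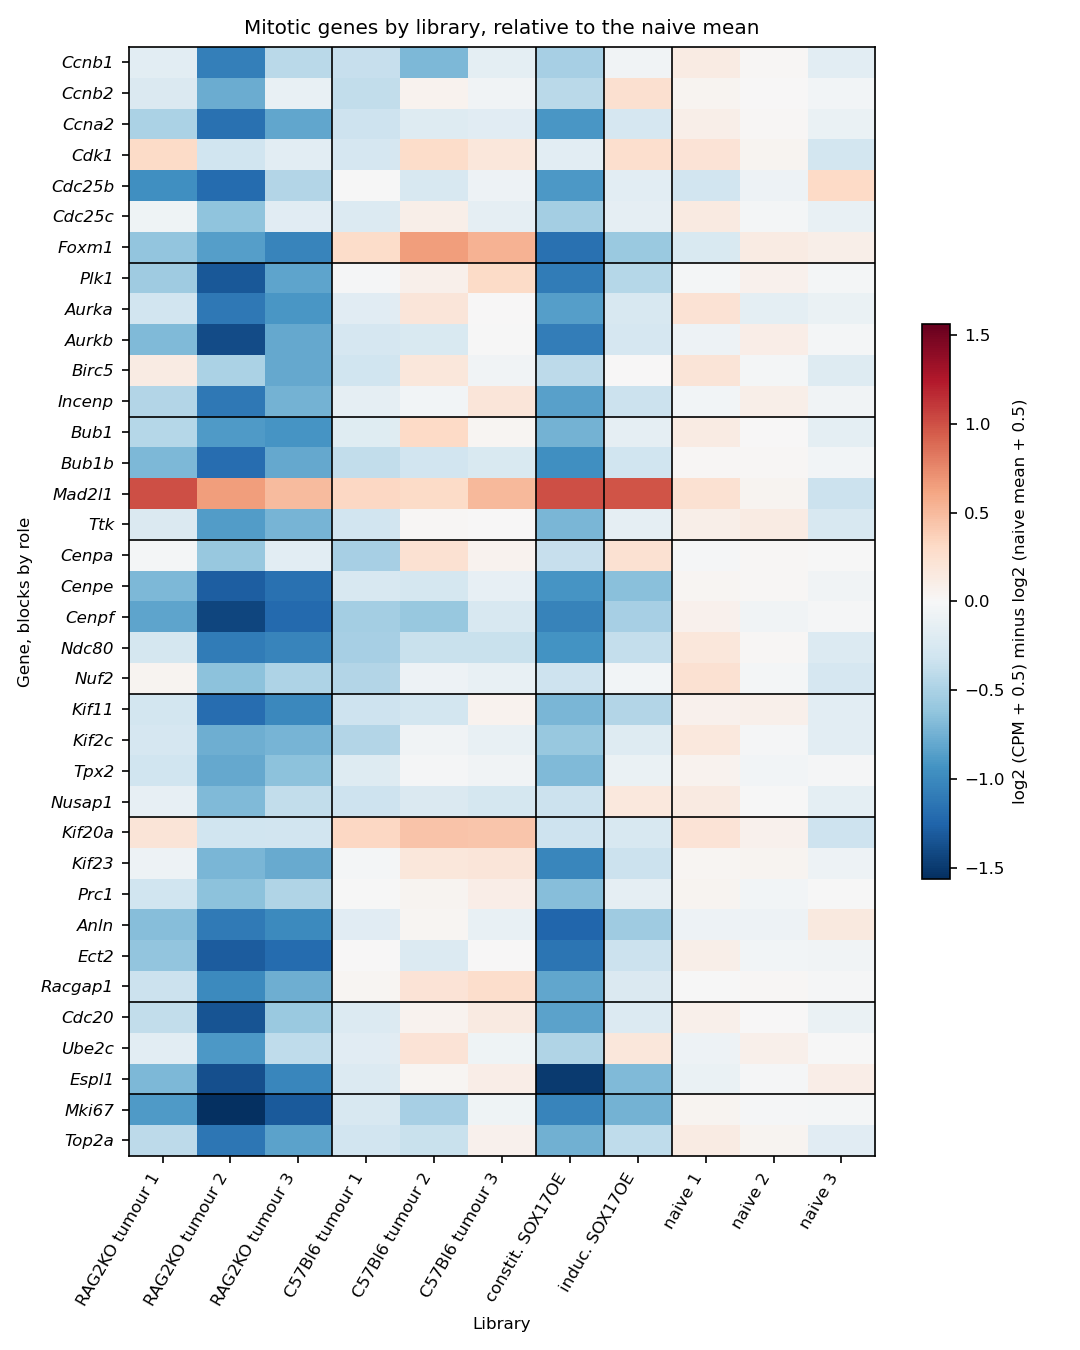
Levels of the 36 mitotic genes in each library, as log2 differences from the naive mean with 0.5 CPM added (colour), in blocks by role with vertical lines between groups. RAG2KO replicates 2 and 3 and the constitutive line are mostly blue, the C57Bl6 and naive libraries are pale, and Mad2l1 is red in all libraries that are not naive.

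Many mitotic promoters carry the cell cycle homology region, a short element bound by MuvB, and CCAAT boxes bound by NF-Y. Of the 36 members, 29 have a window of 250 bases before to 50 bases after a start in the RefSeq promoter table (GRCm38.p6). The core of that element reads TTTGAA in some genes and in others TTTAAA, and one of these cores stood on either strand in 24 of these 29 windows (82.8%), against 27.6% of all 32841 windows. CCAAT stood on either strand in 22 of 29 (75.9%), against 37.4% of all windows. Cdc25b, Bub1, Mad2l1, Nuf2 and Nusap1 lacked both cores. By call in RAG2KO against naive, 17 of the 19 lower members with a window and 7 of the 9 uncalled members held a core. Mad2l1 held neither a core nor a CCAAT, and the same was true of the uncalled members Nuf2 and Nusap1. The windows below are shown because they belong to 3 members that fell, 2 that did not pass the test and the 1 that rose. Capitals mark the cores and CCAAT on either strand, so that a CCAAT of the opposite strand reads ATTGG. Each reads toward the gene, and its last 50 bases lie after the start.
Mki67 (chr7:135716330-135716629, minus strand): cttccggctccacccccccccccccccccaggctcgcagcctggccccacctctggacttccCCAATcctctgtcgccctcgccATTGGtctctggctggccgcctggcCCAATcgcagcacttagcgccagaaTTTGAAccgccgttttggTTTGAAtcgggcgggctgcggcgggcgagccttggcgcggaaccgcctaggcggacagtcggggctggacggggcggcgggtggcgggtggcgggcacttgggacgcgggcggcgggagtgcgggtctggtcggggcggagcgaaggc
Plk1 (chr7:122159185-122159484, plus strand): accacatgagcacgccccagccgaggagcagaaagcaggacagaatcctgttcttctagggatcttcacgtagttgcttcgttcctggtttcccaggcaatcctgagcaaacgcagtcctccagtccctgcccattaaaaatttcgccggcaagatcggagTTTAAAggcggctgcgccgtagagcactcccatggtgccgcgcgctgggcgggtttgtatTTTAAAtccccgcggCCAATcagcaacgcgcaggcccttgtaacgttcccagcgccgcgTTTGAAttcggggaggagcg
Ect2 (chr3:27153829-27154128, minus strand): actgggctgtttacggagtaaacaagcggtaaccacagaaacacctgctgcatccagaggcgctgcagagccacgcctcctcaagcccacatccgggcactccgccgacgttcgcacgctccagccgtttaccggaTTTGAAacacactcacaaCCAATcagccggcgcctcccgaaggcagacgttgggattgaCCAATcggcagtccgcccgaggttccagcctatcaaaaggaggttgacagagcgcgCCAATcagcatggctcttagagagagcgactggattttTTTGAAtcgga
Cdk1 (chr10:69352863-69353162, minus strand): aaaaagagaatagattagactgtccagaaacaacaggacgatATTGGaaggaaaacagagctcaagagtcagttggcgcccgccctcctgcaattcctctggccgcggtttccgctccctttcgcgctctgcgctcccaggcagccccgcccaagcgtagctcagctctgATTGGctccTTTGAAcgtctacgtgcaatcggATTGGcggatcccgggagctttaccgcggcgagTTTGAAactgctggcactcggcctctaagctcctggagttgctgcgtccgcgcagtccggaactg
Ccnb1 (chr13:100786437-100786736, minus strand): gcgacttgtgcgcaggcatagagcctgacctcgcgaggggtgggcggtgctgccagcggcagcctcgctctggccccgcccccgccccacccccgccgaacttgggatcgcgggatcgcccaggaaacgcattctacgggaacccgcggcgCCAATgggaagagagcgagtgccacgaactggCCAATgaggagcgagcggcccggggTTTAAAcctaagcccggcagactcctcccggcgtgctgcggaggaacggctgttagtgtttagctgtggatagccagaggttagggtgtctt
Mad2l1 (chr6:66534971-66535270, plus strand): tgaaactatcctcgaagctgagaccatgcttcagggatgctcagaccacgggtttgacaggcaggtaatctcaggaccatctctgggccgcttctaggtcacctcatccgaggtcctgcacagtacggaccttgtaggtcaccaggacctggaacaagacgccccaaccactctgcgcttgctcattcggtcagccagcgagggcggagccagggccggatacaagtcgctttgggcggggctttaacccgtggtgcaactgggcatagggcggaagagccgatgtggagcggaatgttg

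In these windows Mki67 had TTTGAA at 116 and 98 bases before the start, Cdk1 at 71 and 15 bases before it, and Ccnb1 had TTTAAA at 42 bases before it. A match of these letters describes the window and does not show binding.

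Genes of mitotic entry were divided between those that fell in RAG2KO tumour organoids and those that did not pass the test. Foxm1 had 31.1, 26.3 and 23.3 CPM in RAG2KO tumour organoids, 58.5, 75.9 and 70.01 CPM in C57Bl6 tumour organoids and 40.5, 52.3 and 50.96 CPM in naive organoids. Foxm1, the transcription factor that activates late cell cycle genes, was thus lowest in RAG2KO and highest in C57Bl6 tumour organoids, with no overlap between any 2 of the 3 groups. It fell by 0.83 against naive (SE 0.16, adjusted p = 0.00530) and by 1.34 against C57Bl6 tumour organoids (SE 0.16, adjusted p = 0.00200), the largest of the members' differences between the tumour groups. Its change in C57Bl6 tumour organoids against naive, 0.51 (SE 0.16, adjusted p = 0.0578), did not pass the test. In the SOX17OE lines Foxm1 had 21.2 CPM in the constitutive line and 31.8 CPM in the inducible line, and the mean of the lines fell by 0.89 against naive (SE 0.18, adjusted p = 0.0176).

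Cdk1 had 293, 192 and 211 CPM in RAG2KO tumour organoids, 198, 289 and 267 CPM in C57Bl6 tumour organoids and 274, 244 and 194 CPM in naive organoids. The catalytic kinase of mitotic entry therefore overlapped in all groups, and its log2 differences were -0.03 (adjusted p = 0.922) for RAG2KO against naive, -0.12 (adjusted p = 0.703) between the tumour groups, 0.05 (adjusted p = 0.908) for the SOX17OE lines and 0.08 (adjusted p = 0.827) for C57Bl6 against naive. Ccnb1 had 234, 125 and 197 CPM in RAG2KO tumour organoids, 204, 161 and 236 CPM in C57Bl6 tumour organoids and 287, 267 and 234 CPM in naive organoids. The cyclin B1 gene showed log2 differences of -0.50 (adjusted p = 0.111), -0.11 (adjusted p = 0.733), -0.29 (adjusted p = 0.460) and -0.39 (adjusted p = 0.266) in the same order of comparisons. Its low C57Bl6 value of 160.9 CPM came from replicate 2, in which the median of 279 genes on chromosome 13, where Ccnb1 lies, was -0.75 relative to the naive mean on the log2 scale. The part of this shift in the Ccnb1 value was not tested. Ccna2, whose cyclin A2 also serves S phase, had 229, 144 and 184 CPM in RAG2KO tumour organoids, 257, 279.9 and 285 CPM in C57Bl6 tumour organoids and 342, 325 and 299 CPM in naive organoids. It fell by 0.80 against naive (adjusted p = 0.00632) and by 0.56 against C57Bl6 tumour organoids (adjusted p = 0.0311), the second of which was lost without RAG2KO replicate 2 or 3 or C57Bl6 replicate 2 or 3 or naive replicate 1 or 2 singly (adjusted p between 0.0510 and 0.0876). Cdc25b, a phosphatase that activates cyclin-bound CDK1, fell by 0.84 (adjusted p = 0.0151) and 0.73 (adjusted p = 0.0313) in these comparisons. The first of these calls was lost without RAG2KO replicate 2 or naive replicate 3 singly (adjusted p between 0.0518 and 0.0523), and the second without RAG2KO replicate 1 or 2 or C57Bl6 replicate 1 or 3 or naive replicate 2 singly (adjusted p between 0.0508 and 0.0885). The differences for RAG2KO against naive were -0.27 (adjusted p = 0.248) for its relative Cdc25c and -0.35 (adjusted p = 0.165) for Ccnb2, the other B-type cyclin of the list.

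Of 5 mitotic kinase and chromosomal passenger genes, 4 fell against naive and 4 were lower than in C57Bl6 tumour organoids, where 13.3% and 12.2% of all tested genes were lower. Plk1 had 79.1, 46.4 and 65.9 CPM in RAG2KO tumour organoids, 115, 124 and 144 CPM in C57Bl6 tumour organoids and 114, 122 and 114 CPM in naive organoids. All 3 RAG2KO values lay below all values of the other groups of 3. Plk1, a kinase of centrosome maturation and mitotic entry, fell by 0.87 against naive (SE 0.18, adjusted p = 0.00704), and by 1.0 against C57Bl6 tumour organoids (SE 0.18, adjusted p = 0.00575). At 54.6 CPM in the constitutive line and 85.9 CPM in the inducible line, the mean of the SOX17OE lines differed from naive by -0.77 (SE 0.20, adjusted p = 0.0374) on the log2 scale. C57Bl6 against naive differed by 0.13 (adjusted p = 0.682).

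Aurka had 90.4, 51.2 and 59.1 CPM in RAG2KO tumour organoids, 98.1, 127 and 112 CPM in C57Bl6 tumour organoids and 130.2, 100.4 and 104 CPM in naive organoids. This kinase of the spindle poles fell by 0.74 against naive (adjusted p = 0.0263) and by 0.75 against C57Bl6 tumour organoids (adjusted p = 0.0292). The first call was lost without RAG2KO replicate 2 or 3 or naive replicate 1 or 2 singly (adjusted p between 0.0529 and 0.0854), and the second without RAG2KO replicate 2 or 3 or C57Bl6 replicate 2 or 3 singly (adjusted p between 0.0705 and 0.0914). Aurkb had 62.6, 38.3 and 57.9 CPM in RAG2KO tumour organoids, 84.2, 85.7 and 101 CPM in C57Bl6 tumour organoids and 95.9, 109 and 99.5 CPM in naive organoids. Aurkb, the kinase of the chromosomal passenger complex, averaged 52.95 ± 12.9 CPM in RAG2KO tumour organoids, 90.2 ± 9.11 CPM in C57Bl6 tumour organoids and 101 ± 6.58 CPM in naive organoids (SD, n = 3 each). It fell by 0.94 against naive (SE 0.18, adjusted p = 0.00467) and by 0.77 against C57Bl6 tumour organoids (SE 0.18, adjusted p = 0.0139), the second of which was lost without C57Bl6 replicate 3 (adjusted p = 0.0508). Its partner Incenp, which anchors the complex, fell by 0.75 against naive (adjusted p = 0.00961). Against C57Bl6 tumour organoids Incenp fell by 0.76 (adjusted p = 0.0118). Birc5, which encodes survivin of the same complex, had 152, 98.5 and 79.6 CPM in RAG2KO tumour organoids, 112, 157 and 133 CPM in C57Bl6 tumour organoids and 159, 136 and 121 CPM in naive organoids, and the groups overlapped. Its differences were -0.33 (adjusted p = 0.292) for RAG2KO against naive, -0.29 (adjusted p = 0.374) between the tumour groups, -0.20 (adjusted p = 0.629) for the SOX17OE lines and -0.05 (adjusted p = 0.921) for C57Bl6 against naive. The mean of the SOX17OE lines differed from naive by -0.56 (adjusted p = 0.141) for Aurka and -0.67 (adjusted p = 0.0528) for Aurkb, and C57Bl6 tumour organoids differed from naive by 0.01 (adjusted p = 0.980) and -0.17 (adjusted p = 0.560) for the same genes.

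**Figure D2:**
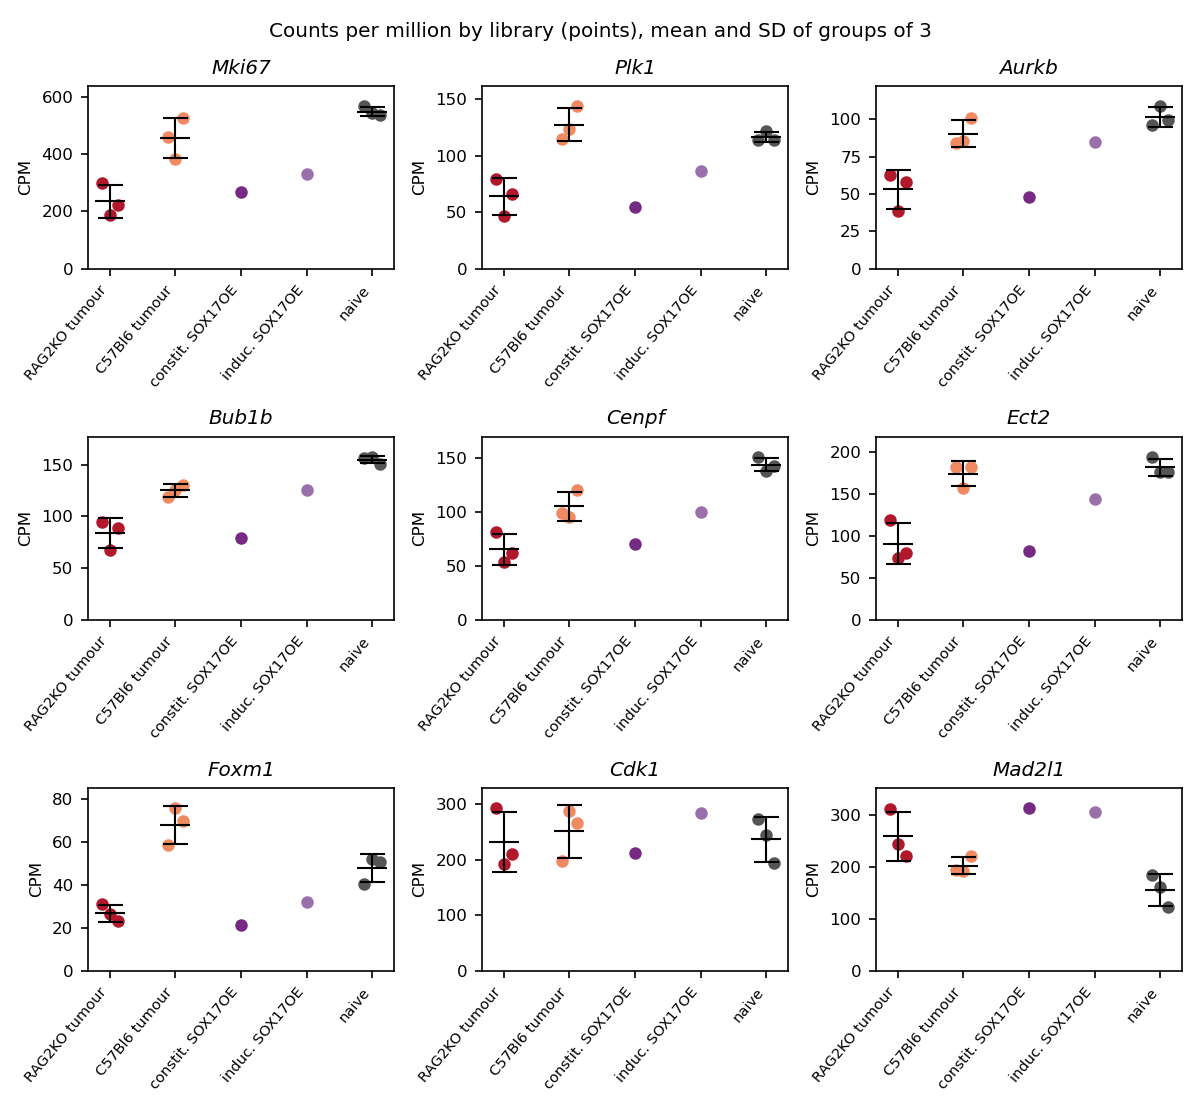
CPM of 9 of the mitotic genes in each library (points), with the mean and SD of each group of 3 (bars); every axis starts at 0 and each SOX17OE line is 1 library. RAG2KO points lie below the naive points for Mki67, Plk1, Aurkb, Bub1b, Cenpf, Ect2 and Foxm1, overlap them for Cdk1 and lie above them for Mad2l1.

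Spindle checkpoint genes moved in opposite directions. Mad2l1 had 312, 245 and 220.0 CPM in RAG2KO tumour organoids, 195, 191 and 222 CPM in C57Bl6 tumour organoids and 183, 160.3 and 123 CPM in naive organoids. Mad2l1 encodes MAD2, the protein that binds CDC20 at unattached kinetochores, and it rose by 0.73 in RAG2KO tumour organoids against naive (SE 0.18, adjusted p = 0.0129). With 313 CPM in the constitutive line and 307 CPM in the inducible line, it also rose in the mean of the SOX17OE lines, by 0.99 (SE 0.19, adjusted p = 0.0134). All C57Bl6 values lay above the naive ones too, yet that difference of 0.38 (SE 0.17, adjusted p = 0.175) and the one of 0.35 (adjusted p = 0.160) between the tumour groups did not pass the test.

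Bub1b had 94.9, 67.6 and 88.6 CPM in RAG2KO tumour organoids, 119, 126 and 131 CPM in C57Bl6 tumour organoids and 157, 157 and 151 CPM in naive organoids. Bub1b, which encodes the checkpoint protein BUBR1, fell by 0.89 against naive (SE 0.14, adjusted p = 0.00178) and by 0.58 against C57Bl6 tumour organoids (SE 0.13, adjusted p = 0.0147), the second of which was lost without C57Bl6 replicate 3 (adjusted p = 0.0503). Bub1 had 59.98, 44.1 and 43.03 CPM in RAG2KO tumour organoids, 71.7, 102 and 83.8 CPM in C57Bl6 tumour organoids and 89.98, 82.6 and 73.5 CPM in naive organoids. This kinase of the kinetochore fell by 0.74 (adjusted p = 0.0119) and 0.81 (adjusted p = 0.0110) in the same comparisons, and its differences for the SOX17OE lines and for C57Bl6 against naive were -0.44 (adjusted p = 0.155) and 0.07 (adjusted p = 0.840). Ttk, the MPS1 kinase that starts checkpoint signalling, fell by 0.59 against naive (adjusted p = 0.0412), although its highest RAG2KO value of 35.2 CPM passed the lowest naive value of 34.7 CPM. This call was lost without RAG2KO replicate 2 or 3 or C57Bl6 replicate 3 or naive replicate 1 or 2 singly (adjusted p between 0.0567 and 0.137).

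At the kinetochore the largest genes fell and the smallest did not pass the test. Cenpf had 81.3, 53.2 and 61.8 CPM in RAG2KO tumour organoids, 99.6, 95.2 and 121 CPM in C57Bl6 tumour organoids and 151, 139 and 143 CPM in naive organoids. Cenpf, a large coiled-coil protein of the outer kinetochore, fell by 1.14 against naive (SE 0.17, adjusted p = 0.00140) and by 0.69 against C57Bl6 tumour organoids (SE 0.16, adjusted p = 0.0162), the second of which was lost without RAG2KO replicate 3 or C57Bl6 replicate 3 singly (adjusted p between 0.0537 and 0.0599). Cenpe had 70.8, 47.3 and 51.3 CPM in RAG2KO tumour organoids, 97.2, 96.00 and 106 CPM in C57Bl6 tumour organoids and 118, 117 and 112 CPM in naive organoids. This kinesin, which carries chromosomes to the spindle equator, fell by 1.04 against naive (SE 0.15, adjusted p = 0.00150) and by 0.82 against C57Bl6 tumour organoids (SE 0.15, adjusted p = 0.00624). Ndc80, the microtubule-binding subunit of its complex, fell by 0.76 against naive (adjusted p = 0.0258), a call that was lost without RAG2KO replicate 2 or 3 or naive replicate 1 or 2 singly (adjusted p between 0.0755 and 0.0866). Its partner Nuf2 differed by -0.33 (adjusted p = 0.237). Cenpa, the histone H3 variant that marks centromeres, had 122, 83.03 and 112 CPM in RAG2KO tumour organoids, 87.4, 148 and 129 CPM in C57Bl6 tumour organoids and 124, 127 and 124 CPM in naive organoids. Its difference from naive was -0.24 (adjusted p = 0.378).

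Of the spindle genes, 3 of 4 fell against naive, where 13.3% of all tested genes fell. These were Kif11, the motor that pushes spindle poles apart, by 0.77 (adjusted p = 0.0272), Kif2c, a microtubule depolymerase of the centromere, by 0.57 (adjusted p = 0.0343), and Tpx2, the activator of Aurora A, by 0.57 (adjusted p = 0.0130). Nusap1, a protein that bundles spindle microtubules, differed by -0.38 (adjusted p = 0.0783). Tpx2 was the one of the 4 that was also called against C57Bl6 tumour organoids, at -0.49 (adjusted p = 0.0294). Single libraries decided 3 of these calls. Kif11 was not called without RAG2KO replicate 2 or 3 or naive replicate 1 or 2 singly (adjusted p between 0.0701 and 0.0866). Kif2c was not called without RAG2KO replicate 2 or 3 or naive replicate 1 or 2 singly (adjusted p between 0.0892 and 0.116). Against C57Bl6 tumour organoids Tpx2 was not called without RAG2KO replicate 2 or 3 or C57Bl6 replicate 2 or 3 or naive replicate 1 or 2 singly (adjusted p between 0.0505 and 0.0867).

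Of 6 cytokinesis genes, 5 were called lower in RAG2KO than in C57Bl6 tumour organoids, where 12.2% of all tested genes were, and all 6 had every RAG2KO value below every C57Bl6 value, where 20.4% of tested genes did. Ect2 had 118, 73.5 and 78.8 CPM in RAG2KO tumour organoids, 182, 156 and 182 CPM in C57Bl6 tumour organoids and 194, 176 and 176 CPM in naive organoids. Ect2, the exchange factor that activates RHOA at the cleavage plane, fell by 1.01 against naive (SE 0.18, adjusted p = 0.00333) and by 0.94 against C57Bl6 tumour organoids (SE 0.18, adjusted p = 0.00643). Anln had 114, 84.1 and 90.7 CPM in RAG2KO tumour organoids, 160.0, 185 and 167 CPM in C57Bl6 tumour organoids and 171, 171 and 201 CPM in naive organoids. Anillin, a scaffold of the contractile ring, fell by 0.91 (SE 0.14, adjusted p = 0.00197) and 0.82 (SE 0.14, adjusted p = 0.00479) in those comparisons. For Ect2 and Anln the RAG2KO values lay below every C57Bl6 and naive value. Racgap1, a subunit of centralspindlin, fell by 0.67 (adjusted p = 0.0127) and 0.85 (adjusted p = 0.00672). Prc1, which crosslinks the midzone microtubules, fell by 0.47 (adjusted p = 0.0139) and 0.51 (adjusted p = 0.0122), the first of which was lost without RAG2KO replicate 2 (adjusted p = 0.0538). The other centralspindlin subunit, Kif23, differed from C57Bl6 tumour organoids by -0.61 (adjusted p = 0.0358), a call lost without RAG2KO replicate 2 or 3 or C57Bl6 replicate 2 or 3 or naive replicate 1 or 2 singly (adjusted p between 0.0574 and 0.111). Its difference from naive was -0.49 (adjusted p = 0.0649). Kif20a had 133, 93.1 and 93.9 CPM in RAG2KO tumour organoids, 145, 158 and 156 CPM in C57Bl6 tumour organoids and 134, 121 and 92.1 CPM in naive organoids. This kinesin, which brings the passenger complex to the midzone, differed by -0.12 (adjusted p = 0.639) from naive and by -0.52 (adjusted p = 0.0539) from C57Bl6 tumour organoids.

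Among genes of anaphase and exit, Espl1 had 26.01, 16.2 and 20.8 CPM in RAG2KO tumour organoids, 36.7, 43.5 and 45.96 CPM in C57Bl6 tumour organoids and 39.8, 42.2 and 46.05 CPM in naive organoids. Espl1 encodes separase, the protease that cuts cohesin, and it fell by 1.02 against naive (SE 0.18, adjusted p = 0.00327) and by 1.0 against C57Bl6 tumour organoids (SE 0.18, adjusted p = 0.00531). Cdc20 had 135, 68.7 and 117 CPM in RAG2KO tumour organoids, 150.5, 183 and 193 CPM in C57Bl6 tumour organoids and 186, 177 and 163 CPM in naive organoids. This activator of the anaphase-promoting complex fell by 0.71 against both naive (adjusted p = 0.0334) and C57Bl6 tumour organoids (adjusted p = 0.0385). The first call was lost without RAG2KO replicate 2 or 3 or naive replicate 1 or 2 or 3 singly (adjusted p between 0.0526 and 0.0898), and the second without RAG2KO replicate 2 or 3 or C57Bl6 replicate 2 or 3 or naive replicate 1 or 2 singly (adjusted p between 0.0571 and 0.111). Its differences were -0.52 (adjusted p = 0.176) for the SOX17OE lines and 0.00087 (adjusted p = 1.0) for C57Bl6 against naive. Ube2c, the ubiquitin-conjugating enzyme of that complex, differed by -0.46 (adjusted p = 0.0831) from naive and by -0.46 (adjusted p = 0.0905) from C57Bl6 tumour organoids.

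The classical proliferation marker was the member with the largest fall in RAG2KO against naive. Mki67 had 298, 186 and 221 CPM in RAG2KO tumour organoids, 461, 383 and 526 CPM in C57Bl6 tumour organoids and 568, 543 and 536 CPM in naive organoids. Mki67, whose protein coats mitotic chromosomes, averaged 235 ± 57.3 CPM in RAG2KO tumour organoids, 457 ± 71.2 CPM in C57Bl6 tumour organoids and 549 ± 16.8 CPM in naive organoids (SD, n = 3 each). It fell by 1.22 against naive (SE 0.18, adjusted p = 0.00154) and by 0.96 against C57Bl6 tumour organoids (SE 0.18, adjusted p = 0.00661), and C57Bl6 against naive differed by -0.27 (adjusted p = 0.352). Top2a had 470.0, 285 and 348 CPM in RAG2KO tumour organoids, 505, 487 and 651 CPM in C57Bl6 tumour organoids and 677, 638 and 551 CPM in naive organoids. Topoisomerase II alpha, which untangles sister chromatids, fell by 0.76 against naive (adjusted p = 0.0164), a call lost without RAG2KO replicate 2 or naive replicate 1 or 2 singly (adjusted p between 0.0528 and 0.0566). Its differences were -0.58 (adjusted p = 0.0527) between the tumour groups, -0.57 (adjusted p = 0.106) for the SOX17OE lines and -0.18 (adjusted p = 0.564) for C57Bl6 against naive.

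**Figure D3:**
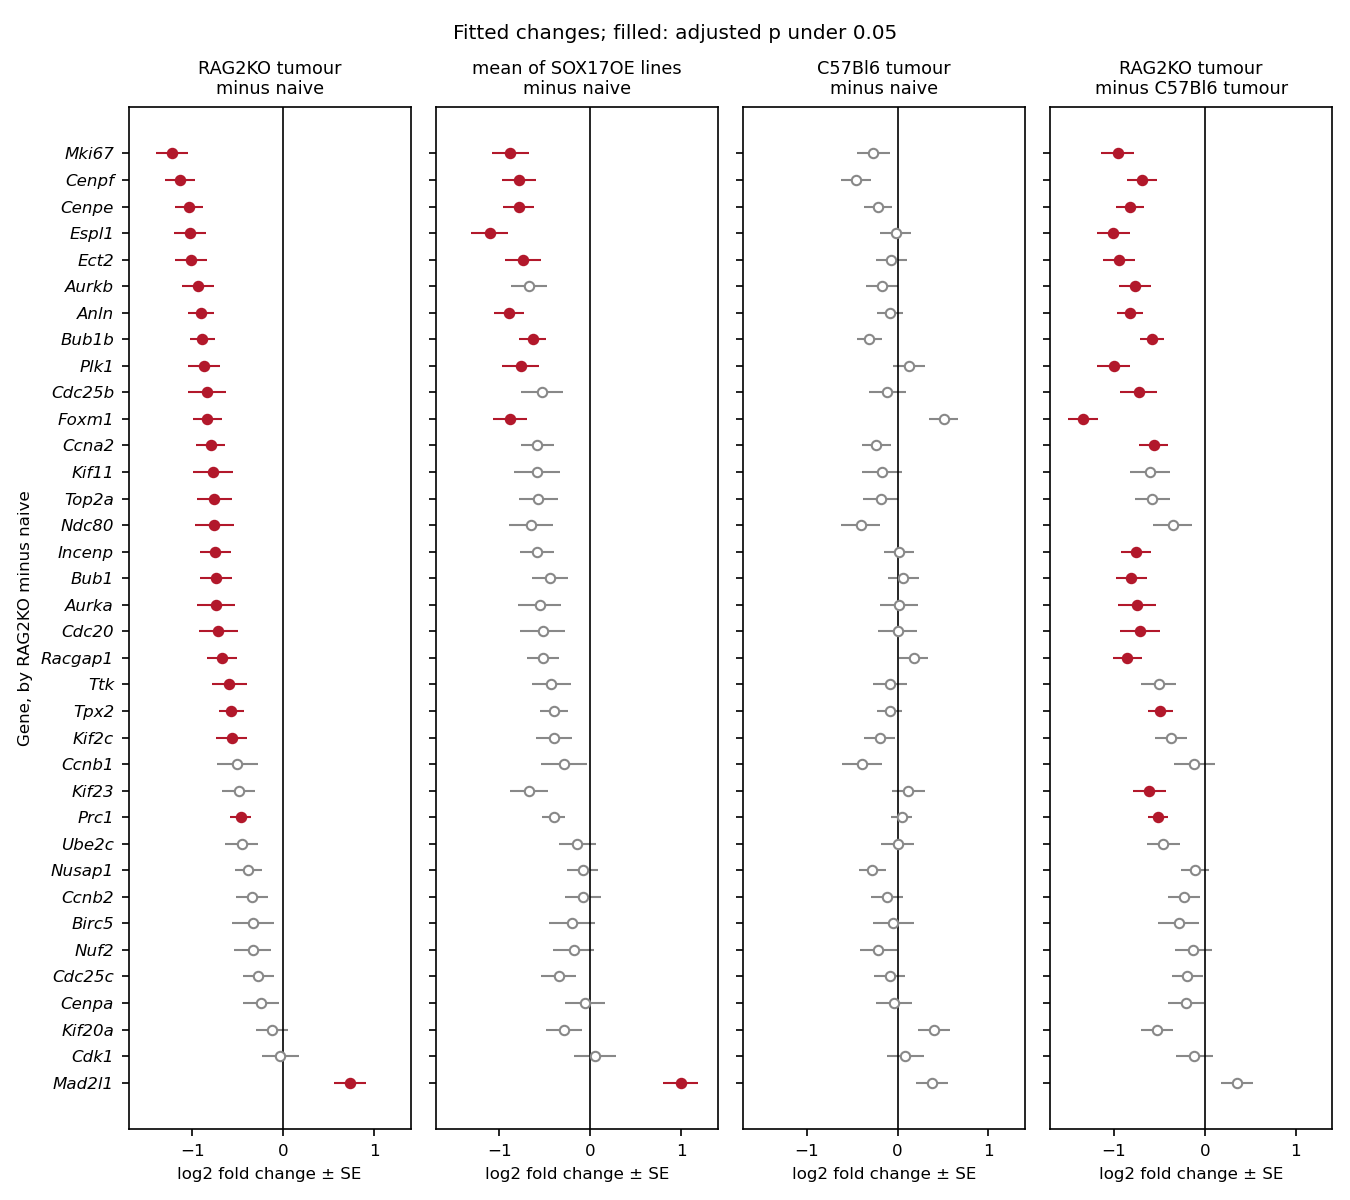
Fitted log2 fold changes of the 36 genes (points) with their standard errors (lines) in 4 comparisons; filled points have an adjusted p under 0.05, and genes are sorted by the RAG2KO change against naive. Filled points number 25 for RAG2KO against naive, 10 for the SOX17OE lines, none for C57Bl6 against naive and 20 between the tumour groups.

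Without any test, 27 members had all 3 RAG2KO values below all 3 naive values, where this held for 22.4% of tested genes, and Mad2l1 had them all above (24.8% of tested genes). Between the tumour groups, 22 members had all RAG2KO values below all C57Bl6 values, against 20.4% of tested genes. The uncalled members Ccnb2, Cdc25c, Cenpa, Ndc80, Nuf2, Kif11, Kif2c, Nusap1 and Ttk had fitted log2 differences between -0.60 (Kif11) and -0.11 (Nusap1) there. C57Bl6 and naive values were separate for 11 members. Ccna2, Bub1b, Cenpe, Cenpf, Ndc80, Nusap1 and Mki67 were lower in all C57Bl6 libraries, 7 of 36 where 16.9% of tested genes were. Foxm1, Mad2l1, Kif20a and Racgap1 were higher, 4 of 36 where 19.9% of tested genes were. Replicate 1 was the lowest C57Bl6 library in 28 of 36 members. Its median over all tested genes was -0.005 relative to the naive mean (log2), a value that the scaling holds near 0. How often C57Bl6 replicate 1 was the lowest over all tested genes was not counted. In that library the median gene of chromosome 18, which carries Kif20a and Cdc25c, was 0.22 relative to the naive mean, and that of chromosome 5, which carries Cenpa, was -0.24 (log2). The median gene of chromosome 6, which carries Foxm1 and Mad2l1, stood 0.24 above the naive mean in RAG2KO replicate 2. The part of these shifts in the members' values was not tested.

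The SOX17OE lines were unlike each other. The constitutive line lay below the inducible line in 35 of 36 members, with Mad2l1 the exception, and below it by more than 1.5-fold in 17, where 11% of all tested genes did. The median log2 difference between the lines was -0.58 over the members and 0 over all tested genes. Against the naive mean, 25 members were more than 1.5-fold lower in the constitutive line (16.2% of tested genes) and 3, Cenpe, Espl1 and Mki67, in the inducible line (11.3%). Mad2l1 was more than 1.5-fold higher in both, where 17.9% and 12.4% of tested genes were. The median member differed from naive by -0.78 in the constitutive and by -0.24 in the inducible line on the log2 scale, with no replicate check. Espl1 had 14.9 CPM in the constitutive line and 26.3 CPM in the inducible line, log2 differences of -1.49 and -0.69 from the naive mean. Mki67 had 269 CPM in the constitutive line and 329.9 CPM in the inducible line, differences of -1.03 and -0.73. For Cdk1 the values were 212 CPM in the constitutive line and 285 CPM in the inducible line, on either side of the naive mean of 237 CPM. Sox17 itself was higher in the constitutive line (72.7 CPM) than in the inducible line (4.78 CPM), and so was the Rn45s share (6.39% and 3.71%). The part of Rn45s in the members' values was not tested within the lines.

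Cell type markers also differed in the lines. Of 8 epithelial markers 5 fell in the mean of the lines against naive and none rose, where 5.92% of all tested genes fell and 6.77% rose. Their median log2 change was -0.72, and 7 of the 8 had negative and 1 a positive fitted change, between -1.14 and 0.07. Epcam, at 1006 CPM in the constitutive line, 1085 CPM in the inducible line and 974 to 1035 CPM in naive organoids, was not called. In C57Bl6 against naive 2 of the 8 fell and 1 rose (5.85% and 9.5% of all genes). In RAG2KO against naive 2 fell and none rose (13.3% and 16%). Between the tumour groups 1 was lower and 1 higher in RAG2KO (12.2% and 11.8%). The 6 endothelial markers summed to 36.02 CPM in the constitutive line, 7.05 CPM in the inducible line and 1.29 to 1.64 CPM in naive organoids. They summed to 1.62 to 5.20 CPM in RAG2KO and 1.83 to 3.69 CPM in C57Bl6 tumour organoids. Of the 3 of them with enough counts, Tek and Cdh5 were called higher in the mean of the lines (6.77% of all tested genes). In C57Bl6 against naive 1 was called higher (9.5%), and 1 was lower in RAG2KO than in C57Bl6 tumour organoids (12.2%). Tek had 26.05 CPM in the constitutive line, 3.61 CPM in the inducible line and at most 0.10 CPM in naive organoids, whereas Pecam1 had 0.12 CPM in the constitutive line, 0.06 CPM in the inducible line and at most 0.21 CPM in naive organoids. The part of these markers in the members' values was not tested.

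In the fit, which takes the mean of the lines and assumes that each varies like the replicated groups, 9 members fell against naive. Espl1 fell by 1.11 (SE 0.20, adjusted p = 0.0111), Anln by 0.90 (SE 0.16, adjusted p = 0.0104) and Mki67 by 0.88 (SE 0.20, adjusted p = 0.0239). Cenpe fell by 0.79 (adjusted p = 0.0196), Cenpf by 0.78 (adjusted p = 0.0259), Ect2 by 0.74 (adjusted p = 0.0384) and Bub1b by 0.64 (adjusted p = 0.0265). Foxm1, Plk1 and the rise of Mad2l1 complete the calls. None of the 10 calls remained in the fit without the constitutive line, in which 0.625% of all genes were called. Leaving out naive replicate 1, 2 or 3 left 5, 2 and 4 calls, where 9.45%, 3.29% and 4.18% of all genes were called. The 26 uncalled members had fitted differences between -0.68 (Kif23) and 0.05 (Cdk1). In 23 members both lines lay below all naive libraries, where this held for 23% of tested genes.

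**Figure D4:**
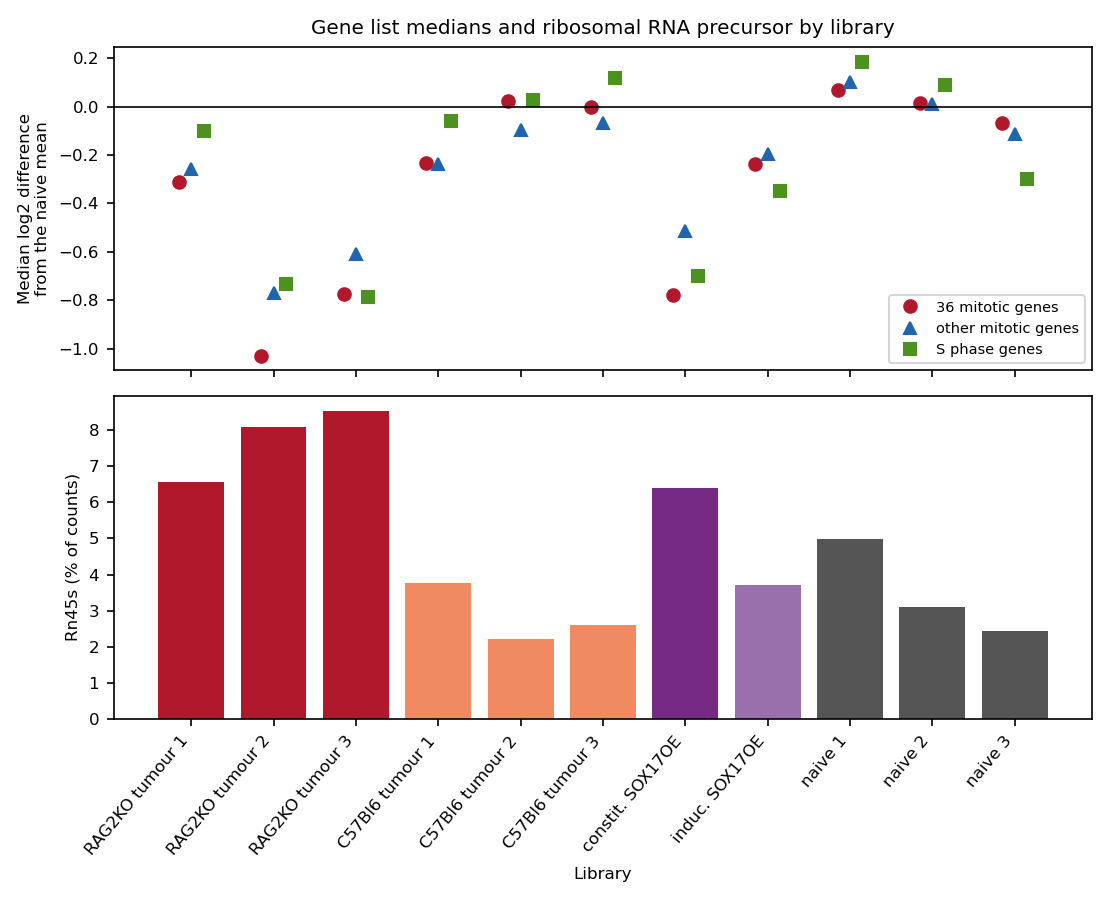
Median log2 difference from the naive mean over the 36 mitotic genes, 111 other mitotic genes and 44 S phase genes in each library (upper panel), and the share of counts on the ribosomal RNA precursor Rn45s (lower panel, bars from 0). The median of the 36 genes is -0.31, -1.03 and -0.77 in the RAG2KO libraries, whose Rn45s shares of 6.56, 8.10 and 8.54% exceed those of the other libraries.

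Further genes of the programme were counted from lists written with earlier results of these data known. Of 111 other mitotic genes, 53 fell and 1 rose in RAG2KO tumour organoids against naive. The shares of all tested genes were 13.3% and 16%. In RAG2KO against C57Bl6 tumour organoids 40 were lower and 2 higher (12.2% and 11.8% of all genes), and the SOX17OE lines had 20 lower and 1 higher (5.92% and 6.77%). C57Bl6 tumour organoids had 4 lower and none higher than naive, a smaller share than the 5.85% and 9.5% of all genes. Hjurp, the chaperone that loads CENPA, fell by 1.80 against naive (adjusted p = 0.000841) and Stil, a centriole assembly protein, by 1.06 (adjusted p = 0.000578). Kif14, a kinesin of cytokinesis, fell by 1.18 (adjusted p = 0.00107) and the microtubule polymerase Ckap5 by 0.84 (adjusted p = 0.000578). Against C57Bl6 tumour organoids the first 4 by adjusted p were Anapc1, Mybl2, Stag1 and Kif14, with log2 differences of -0.71, -1.26, -0.94 and -0.97. In the SOX17OE lines Stil fell by 0.90, Mybl2, which encodes B-MYB, by 1.35, Hjurp by 1.55 and the cyclin F gene Ccnf by 0.79. In C57Bl6 tumour organoids Cenpm, Cks2, Cenpk and Cenpp fell against naive by 0.89, 0.83, 1.12 and 1.10. In C57Bl6 replicate 2 the median of 279 genes on chromosome 13 was -0.75 (log2) relative to the naive mean. Whether these 4 genes lie on that chromosome was not examined. Of 18 condensin and cohesin genes, 16 fell in RAG2KO tumour organoids against naive, and of 15 genes of the anaphase-promoting complex and its substrates and inhibitors 1 fell and 1 rose, where 13.3% of all tested genes fell and 16% rose.

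The gene that rose was Pttg1, which encodes securin, the inhibitor of separase. Pttg1 had 38.9, 48.5 and 49.2 CPM in RAG2KO tumour organoids, 22.95, 21.6 and 18.8 CPM in C57Bl6 tumour organoids and 23.5, 21.6 and 20.5 CPM in naive organoids. All 3 RAG2KO values lay above the others of these groups, and it rose by 1.06 against naive (SE 0.14, adjusted p = 0.000999) and by 1.11 against C57Bl6 tumour organoids (SE 0.14, adjusted p = 0.00252). The SOX17OE lines had 32.04 and 35.3 CPM, and their mean rose by 0.62 (SE 0.16, adjusted p = 0.0316). Securin RNA thus rose where separase RNA fell. Cdc26, a subunit of the complex, was the other gene higher in RAG2KO than in C57Bl6 tumour organoids, by 0.60 (adjusted p = 0.0275).

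Of 44 genes of S phase, 18 fell in RAG2KO tumour organoids against naive (13.3% of all genes), 17 were lower than in C57Bl6 tumour organoids (12.2%), 7 fell in the SOX17OE lines (5.92%), and none was called in C57Bl6 against naive, where 1 had an unadjusted p under 0.05. Against naive, Pold1 and Pole, DNA polymerase subunits, fell in RAG2KO by 1.01 and 0.91, the methylation maintenance factor Uhrf1 by 0.93 and the licensing factor Cdt1 by 0.84. The same 4 were called against C57Bl6 tumour organoids, with log2 differences of -0.92, -1.11, -0.96 and -1.05. In the SOX17OE lines Pold1 fell by 1.16, Cdt1 by 1.03, Uhrf1 by 0.89 and Rrm2, of ribonucleotide reductase, by 0.96.

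Of 27 regulators of the programme, 10 fell and 2 rose in RAG2KO tumour organoids against naive, where 13.3% of all genes fell and 16% rose. Against C57Bl6 tumour organoids 9 were lower and 1 higher in RAG2KO (12.2% and 11.8% of all genes), and in the SOX17OE lines 6 fell and 1 rose (5.92% and 6.77%). In C57Bl6 tumour organoids against naive 1 fell and 2 rose, smaller shares than the 5.85% and 9.5% of all genes. Lin54, the DNA-binding subunit of MuvB, fell by 1.21 in RAG2KO (adjusted p = 0.000680) and by 1.28 in the SOX17OE lines (adjusted p = 0.00312). The repressors E2f7 and E2f8 fell by 1.45 (adjusted p = 0.00140) and 1.29 (adjusted p = 0.00158) in RAG2KO against naive. Against C57Bl6 tumour organoids their differences were -1.57 and -1.29, and those of Cdk6 and E2f4 were -1.18 and -0.73, all called. E2f5 rose by 0.46 against naive and by 0.68 against C57Bl6 tumour organoids. In the SOX17OE lines E2f7 fell by 1.70, Ccnd2 fell by 1.09 and E2f4 fell by 0.65.

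Cdkn2a, whose products restrain CDK4 and CDK6 and MDM2, had 314, 335 and 279 CPM in RAG2KO tumour organoids, 289, 320.0 and 276 CPM in C57Bl6 tumour organoids, 219 and 257 CPM in the constitutive and inducible lines, and 141, 148 and 159 CPM in naive organoids. It rose by 1.05 in RAG2KO (adjusted p = 0.000454), by 0.98 in C57Bl6 (adjusted p = 0.000670) and by 0.67 in the SOX17OE lines (adjusted p = 0.0135), and every library that was not naive exceeded the naive ones. The part of Cdkn2a in the members' values was not tested. Rb1, the retinoblastoma gene, fell by 1.60 in RAG2KO (adjusted p = 0.00212) and by 1.24 in C57Bl6 (adjusted p = 0.00914) against naive, and Ccnd1 rose by 0.89 in C57Bl6 (adjusted p = 0.00334).

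The members' changes followed the length of their coding sequences. In RAG2KO against naive, 20 of 22 members with at least 1500 coding bases (GENCODE M21) fell, and 4 of 14 shorter ones did, where 13.3% of all tested genes fell. The median log2 changes of these members were -0.77 and -0.36. Over all genes with a coding length, the medians on the 2 sides of that split were -0.14 and 0.12. Across the 36 genes, Spearman's rho between the change and coding length was -0.659, beside -0.23 over the 11861 tested genes with a coding length. It was -0.602 between the tumour groups (all genes -0.281), -0.72 for the SOX17OE lines (all genes -0.235) and -0.188 for C57Bl6 against naive (all genes 0.0478). Mki67 (9531 coding bases), Cenpf (8991), Cenpe (7413) and Espl1 (6354) had the largest falls, while Mad2l1 (615) rose and Cenpa (402), Birc5 (420), Ube2c (537) and Cdk1 (891) were not called. These points share libraries, depth and length-dependent signal. Coding length was chosen after the longest coding transcript had been tried. With that transcript, rho over the members was -0.386, -0.298, -0.39 and -0.053 in the same order. Over all genes it was -0.238, -0.295, -0.22 and 0.0469, so that between the tumour groups the members were close to all genes. By this measure Mad2l1, which rose, had 7557 bases and Cdk1 4375, beside 11130 for Cenpf and 10061 for Mki67. Cenpa, Ube2c and Birc5 had 1466, 2191 and 3334 bases.

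The dependence on length was not particular to mitotic genes. The median changes of all genes in RAG2KO against naive were 0.23, 0.03, -0.06 and -0.20 from the shortest to the longest of 4 equal groups. When a library-wise trend with coding length and GC content was removed, an alternative added after seeing the data, 18 members were called for RAG2KO against naive (27.5% of all genes), 11 between the tumour groups (19.7%) and 4 for the SOX17OE lines (11.2%). Of the calls in RAG2KO against naive, 14 of 25 held under this and all other alternatives but the Rn45s covariate, and those were Ccna2, Foxm1, Plk1, Aurkb, Incenp, Bub1b, Mad2l1, Cenpe, Cenpf, Anln, Ect2, Racgap1, Espl1 and Mki67. Between the tumour groups 7 of 20 did, namely Foxm1, Plk1, Bub1, Prc1, Anln, Ect2 and Racgap1.

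**Figure D5:**
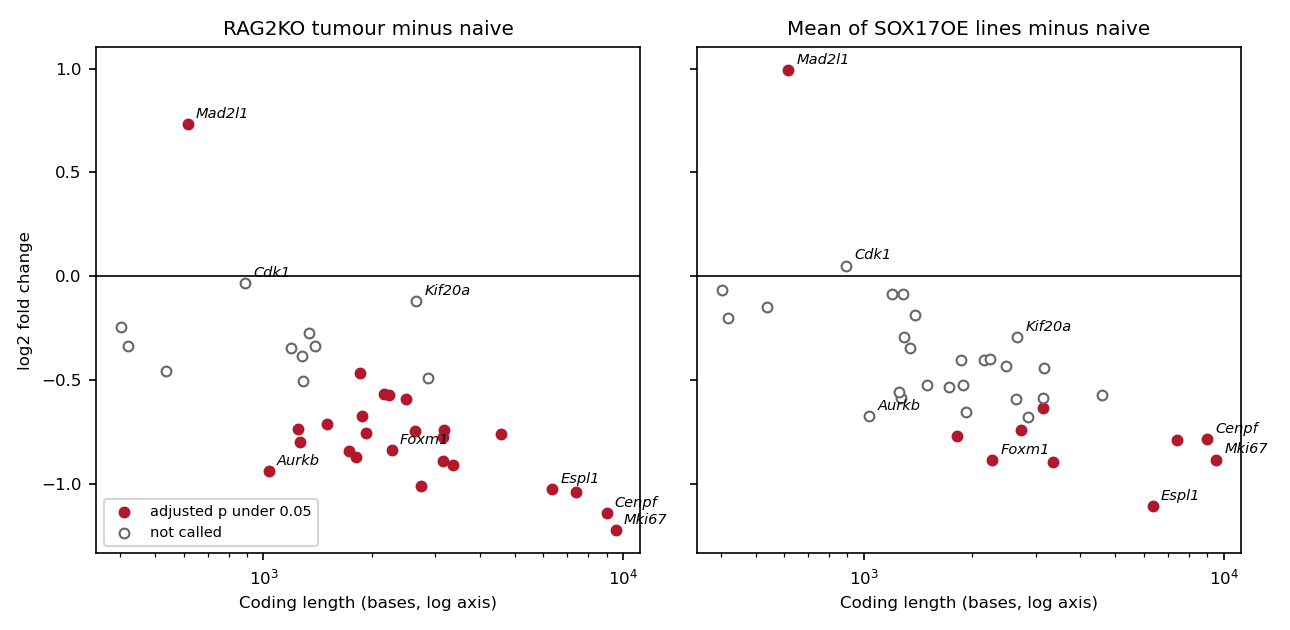
Fitted log2 fold change of the 36 mitotic genes against coding length in bases (log axis) for RAG2KO tumour organoids (left) and the SOX17OE lines (right), both against naive; filled points have an adjusted p under 0.05. Points fall toward the right, with Mki67 and Cenpf at the lower right and Mad2l1 alone at the upper left.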

How the data were processed

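The submitters' processing notes name Bowtie, RSEM and the mm9 build, but their versions and the annotation were not given in these sources. The labels name an Ambion PureLink kit for RNA, poly(A) selection and NEBNext Ultra II Directional reagents. In the deposited table the authors give expected counts (RSEM) of 23224 gene names for 11 libraries, estimates in which a read that matches several genes is divided among them. Library totals were 14109182 to 22154456.

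Expected counts were rounded to whole numbers, filtered with filterByExpr (13720 genes kept), scaled by TMM and fitted in 5 groups by edgeR 4.0.16 (quasi-likelihood, robust option; R 4.3.3). Tests were two-sided, with Benjamini-Hochberg adjustment over all tested genes. Standard errors were taken as |log2 fold change| over the root of F. The common dispersion of 0.0641 corresponds to a biological variation of 25.3%, and 6 residual degrees of freedom remained. The labels do not say that replicates came from separate cultures or mice, so p-values measure only the spread between these samples. Replicates differed by more than counting noise in every pair.

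Alternatives were DESeq2 size factors, upper quartile scaling, library totals, no filter, 1 CPM in at least 3 libraries, the Wald test of DESeq2 1.42.0, fits restricted to the compared groups, a replicate block, and each library left out. An offset for coding length and GC content (loess, span 0.5) and the Rn45s share as a covariate were added after seeing the data, as were the split at 1500 coding bases, the 1.5-fold rule for single lines (0.5 CPM added to each value) and the chromosome medians (genes over 10 CPM, shifts over 0.2). All 36 members and 86.5% of tested genes had a coding length. The tests were checked on simulated counts.

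The members and the gene lists were chosen with earlier results of these data known. Every called member is named, 12 fixed members are named in each comparison, and each other list gives its first 4 called genes per direction by adjusted p. The files use mm9; promoter windows were matched by symbol to RefSeq's GRCm38.p6 table, and no coordinates were converted. Of 114 listed other mitotic genes 111 matched a name.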

Additional observations from a re-analysis of the deposited data

Results flagged for a closer look

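In 20 of the 36 mitotic genes the change from naive differed between RAG2KO and C57Bl6 tumour organoids, by the edgeR quasi-likelihood test of that difference. It equals the direct comparison of the tumour groups, in which 24% of all tested genes were called. The log2 differences, RAG2KO effect minus C57Bl6 effect, were Foxm1 -1.34, Anln -0.82, Espl1 -1.0, Plk1 -1.0, Cenpe -0.82, Ect2 -0.94, Mki67 -0.96, Racgap1 -0.85, Bub1 -0.81, Incenp -0.76. They were Prc1 -0.51, Aurkb -0.77, Bub1b -0.58, Cenpf -0.69, Aurka -0.75, Tpx2 -0.49, Ccna2 -0.56, Cdc25b -0.73, Kif23 -0.61 and Cdc20 -0.71 for the others, in order of adjusted p, which ran from 0.00200 to 0.0385. All 20 were lower in RAG2KO. No group of 4 or more libraries exists, so no library was tested as an outlier.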

How the results depend on the processing

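Of the 36 members, 25 were called for RAG2KO against naive, and over the left-out libraries the count ran from 16 to 30. Between the tumour groups it ran from 11 to 26 around 20, and for the SOX17OE lines from 0 to 17 around 10. For C57Bl6 against naive it ran from 0 to 1. Over the left-out libraries the share of all tested genes called ran from 14.9 to 30.7% for RAG2KO against naive. That share ran from 13.6 to 24.3% between the tumour groups and from 7.52 to 17.2% for C57Bl6 against naive. For the SOX17OE lines it ran from 3.29 to 14.2% over the fits that kept both lines. It was 12.3% without RAG2KO replicate 1, where 17 members were called. The members' median for the SOX17OE lines ran from -0.78 to -0.24 over the left-out libraries, and the other medians moved by less than the spread between replicates under every alternative.

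The Rn45s covariate left 0 calls in each comparison. The coding length and GC offset left 11 calls between the tumour groups and 4 for the SOX17OE lines, and gave 1 for C57Bl6 against naive (Mad2l1). The Wald test of DESeq2 gave 16 calls for the SOX17OE lines (19.8% of all genes) and 2 for C57Bl6 against naive (20%). The fit of only the groups compared gave 3 and 1, where 7.01% and 17.4% of all genes were called. For the SOX17OE comparison this fit took both lines as replicates of the same group, although they differed from each other. Under the alternatives planned at the outset, 16 of 25 calls for RAG2KO against naive and 11 of 20 between the tumour groups held in every one, and none of 10 for the SOX17OE lines did. Other counts of calls stayed within 1.5 times the reported ones.

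Directions turned in members near 0 that were not called. For C57Bl6 against naive, Cdc20 gave -0.0062 with DESeq2 size factors, -0.036 with upper quartile scaling, -0.0062 with the Wald test, -0.0029 with the groups compared alone, -0.0075 with the replicate block, -0.098 with the length offset and -0.043 with the Rn45s covariate. Aurka gave -0.024, -0.015 and -0.023 with upper quartile scaling, the length offset and the covariate. Over left-out libraries Cdc20 ran from -0.073 to 0.100, Aurka from -0.084 to 0.11, Cdk1 from -0.044 to 0.23, Bub1 from -0.076 to 0.18 and Birc5 from -0.17 to 0.068. For RAG2KO against naive, Cdk1 gave 0.027 with upper quartile scaling and 0.076 with the covariate, and ran from -0.24 to 0.089 over left-out libraries. Between the tumour groups Cdk1 gave 0.029 with the covariate and ran from -0.32 to 0.0053, and Ccnb1 ran from -0.32 to 0.11. For the SOX17OE lines Cdk1 gave -0.0034 with the length offset and ran from -0.16 to 0.27, and Birc5 ran from -0.41 to 0.011. The causes were not tested.

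With the replicate number as a block, 23 members were called for RAG2KO against naive, 17 between the tumour groups and 0 for C57Bl6 against naive. The shares of all genes were 27.1%, 21.1% and 13.6%. The SOX17OE lines have 1 library each, so no block was fitted there. Correlations of the deviations of same-numbered libraries ran from -0.25 to 0.336, and those of differently numbered ones from -0.413 to 0.246. Deviations within a group of 3 sum to 0, so these correlations cannot show whether same-numbered libraries share more than the number. Each line rests on 1 library and each group on 3, which limits what can be called.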
